A study of Mus musculus with 4 samples.

Results

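The genes described here encode the small ubiquitin-like modifier (SUMO) machinery and the scaffold of PML bodies in mouse embryonic stem (ES) cells. They were picked by symbol as components that Morc3 works with. The rule uses no measured value, but the genes were chosen with earlier results of these data known. All 8 of them (Sumo2, Sumo3, Sae1, Uba2, Pias1, Senp1, Pml and Sp100) were among the 24054 genes of the count tables, and 7 had enough counts to be tested.

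The study asked how Morc3, an ATPase of the nucleus, silences endogenous retroviruses, and the rescue libraries show what the cells express once Morc3 has been put back into a knock-out (ko) line. RNA was sequenced from 1 culture of the wild-type line wt26 and from 3 Morc3 rescue clones, T131-3C, T131-3D and T131-3M, called 3C, 3D and 3M from here on. All 3 were picked as single clones from KO27-2, itself a single CRISPR-Cas9 Morc3 ko clone of wt26, after transfection of a PiggyBac transposon and puromycin selection. The transposon carries wild-type Morc3 behind the constitutive hPGK promoter, with puromycin resistance, so every rescue clone has both the disrupted Morc3 gene and the transgene. Wild type has neither, and all cells were feeder-independent and grown with serum and LIF. The Morc3 ko line itself is not analysed here. Morc3 dose, the transposon, the selection and the history of the clones differ together between the groups, so their parts in any difference cannot be told apart.

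SUMO proteins are attached to lysines of other proteins in a chain of steps. A SUMO protease first trims the precursor to expose a pair of glycines at its end, the E1 enzyme, a dimer of Sae1 and Uba2, activates that end for transfer, and E3 ligases such as Pias1 help to place it on the target. SUMO proteases also remove it again. PML bodies are round nuclear assemblies whose shell is made by Pml, a heavily SUMO-modified protein, and proteins that bear SUMO or SUMO-binding motifs, among them Sp100, Daxx and Morc3, gather there. In many cell types both Pml and Sp100 are induced by interferon.

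The wild-type library had 18789457 read pairs on genes, and the 3 clone libraries had from 13620914 to 15479190. Levels are given as CPM, read counts divided by library size after TMM scaling, and per kilobase of exon where genes are compared with each other. Wild type had 14.5% unmapped read pairs, the clones had 21.0% to 23.0%, and the part of that difference in the results was not tested. All 10 ES cell markers, such as Pou5f1 and Sox2, were detected, with a summed level between 5351 and 6081 CPM per library. None was called changed, but only 1 of the 13267 genes tested was. Their log2 fold changes ran from -0.11 (Klf4) to 0.54 (Nanog). In edgeR's quasi-likelihood test 2 of the 10 had an unadjusted p under 0.05, both higher in the clones, where 5.92% of all tested genes were. Summed markers of fibroblasts lay between 20.4 and 45.0 CPM. Most of that sum was Thy1, at 31.7 CPM in wild type and 43.7, 18.6 and 22.7 CPM in 3C, 3D and 3M. Col3a1, Lum and Dcn were at 0 in every library. Summed markers of primitive endoderm lay between 6.67 and 11.0 CPM, those of trophoblast between 3.04 and 10.1, and those of two-cell-like cells between 0 and 0.223. Relative to wild type, the median gene of chromosome 14 was raised by 0.35, 0.34 and 0.35 (log2 scale; clone order 3C, 3D, 3M), and that of chromosome 13 by 0.50, 0.02 and 0.50. No SUMO or PML body gene described here lies on either chromosome.

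Morc3, the gene put back (chr16:93832121-93876077, mm10), was counted 3065 times in wild type, 8830 times in 3C, 7225 times in 3D and 9437 times in 3M. That is 161 CPM against 587 ± 81.5 CPM (SD, n = 3), with every clone above wild type. The log2 fold change was 1.87 (standard error 0.17, 95% interval of the fold from 2.72 to 4.90), and its adjusted p was 0.11 in edgeR's quasi-likelihood test. A gene count adds reads from the cDNA to reads from the disrupted locus and cannot separate them, and the opposite strand, not part of it, held 7 counts in wild type against 1963 to 2266 per clone. The 1 wild-type library has no replicate, so every interval and p rests on the spread among clones and takes the wild-type spread to be like theirs.

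Sumo2 and Sumo3 are shown by the bases that encode the end of the mature protein, because copies of these bases elsewhere bear on whether reads can be counted. The 30 bases alone do not settle it, since they are shorter than a read. Each line gives 30 coding bases from 5′ to 3′, ending in the codons of the glycine pair that proteases expose, in capitals.
Sumo2: attgatgtgttccagcagcagactGGAGGT
Sumo3: attgatgtattccagcagcagacaGGAGGA
They lie, on mm10 and read from GENCODE transcripts, at chr11:115523716-115523745 on the minus strand (Sumo2) and chr10:77616172-77616201 on the plus strand (Sumo3). The coding sequence goes on for 2 codons in Sumo2 and 18 in Sumo3 after the pair, and these are the codons that the protease removes from the protein. Sumo3 differs from Sumo2 at 3 of these 30 bases. The Sumo2 run is found letter for letter in 7 pseudogenes (Gm10241, Gm11556, Gm12755, Gm13430, Gm13690, Gm9836 and Smt3h2-ps4) and the Sumo3 run in no gene elsewhere. Over the whole coding sequence, 100% of the 236 windows of 50 bases of Sumo2 are shared with genes elsewhere, 11 of the 12 being pseudogenes. The share was 0% for Sumo3. Over the whole annotated transcripts, not the coding part alone, 19.2% of the 1814 windows of Sumo2 and 0.870% of those of Sumo3 are shared. Only uniquely mapped read pairs were counted, so the Sumo2 count leaves out an unknown share of the reads from its transcripts, and its level is uncertain, while the coding part of Sumo3 has no such copy.

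Among the modifiers, Sumo3 had the higher count and Sumo2 a low one, and neither was called changed. Sumo3 (chr10:77606097-77618331) stood at 145 CPM in wild type and at 156, 148 and 151 CPM in 3C, 3D and 3M. All 3 clones were above wild type, by a margin that for 3D and 3M lay within counting error. The log2 fold change was 0.06 (standard error 0.071, 95% interval -0.12 to 0.24, adjusted p = 0.81 in edgeR's quasi-likelihood test). Sumo2 (chr11:115523109-115536230) stood at 13.2 CPM in wild type and at 14.2, 15.0 and 12.5 CPM in the clones, from 192 to 252 counts per library. Wild type fell inside the range of the clones, with 3M below it and 3C and 3D above. Its log2 fold change was 0.07 with the wide interval from -0.33 to 0.47 (adjusted p = 0.91), so changes within that interval were not detectable at this depth. Per kilobase of exon, wild type had 39.7 CPM of Sumo3 and 7.61 of Sumo2, and the clones had 41.4 ± 1.14 and 8.02 ± 0.727 (SD, n = 3), a gap whose size the shared copies of Sumo2 leave uncertain.

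The 2 subunits of the E1 enzyme had the highest levels of the chosen genes per length, and they lay on opposite sides of wild type. Sae1, the smaller subunit (chr7:16320236-16387896), stood at 253 CPM in wild type and at 234, 243 and 237 CPM in 3C, 3D and 3M. It was the one tested member for which every clone was below wild type. Uba2, the subunit that carries the catalytic cysteine (chr7:34140697-34168590), stood at 418 CPM in wild type and at 423, 441 and 426 CPM in the clones, so every clone was above wild type. For Sae1 in 3D and for Uba2 in 3C and 3M the margin lay within counting error. Neither gene was called changed. The log2 fold change of Sae1 was -0.09 (standard error 0.063, interval -0.25 to 0.07, adjusted p = 0.66 in edgeR's quasi-likelihood test), and that of Uba2 was 0.04 (standard error 0.060, interval -0.11 to 0.19, adjusted p = 0.85). Per kilobase of exon, wild type had 97.6 CPM of Sae1 and 69.3 of Uba2, and the clones had 91.7 ± 1.83 and 71.3 ± 1.55 (SD, n = 3).

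The ratio within the E1 pair does not depend on the scaling between libraries. Sae1 made up 37.7% of the summed Sae1 and Uba2 counts in wild type (95% exact binomial interval 36.9 to 38.6%, which, like all intervals on counts here, holds counting error alone). In 3C, 3D and 3M it made up 35.6% (34.6 to 36.6%), 35.6% (34.6 to 36.5%) and 35.8% (34.8 to 36.7%). The clones had a mean of 35.6 ± 0.0958% (SD, n = 3), and the wild-type interval lay above those of all 3 clones. On the log2 scale the ratio of Sae1 to Uba2 was 0.13 lower in the clones (-0.13, SD between clones 0.0060). The clones lay closer together than the counting interval of any of them, so these SDs do not measure the precision of the ratio. An exact permutation test over 1 wild-type library and 3 clones cannot go below p = 0.25, and no other test of this ratio was run.

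**Figure D1:**
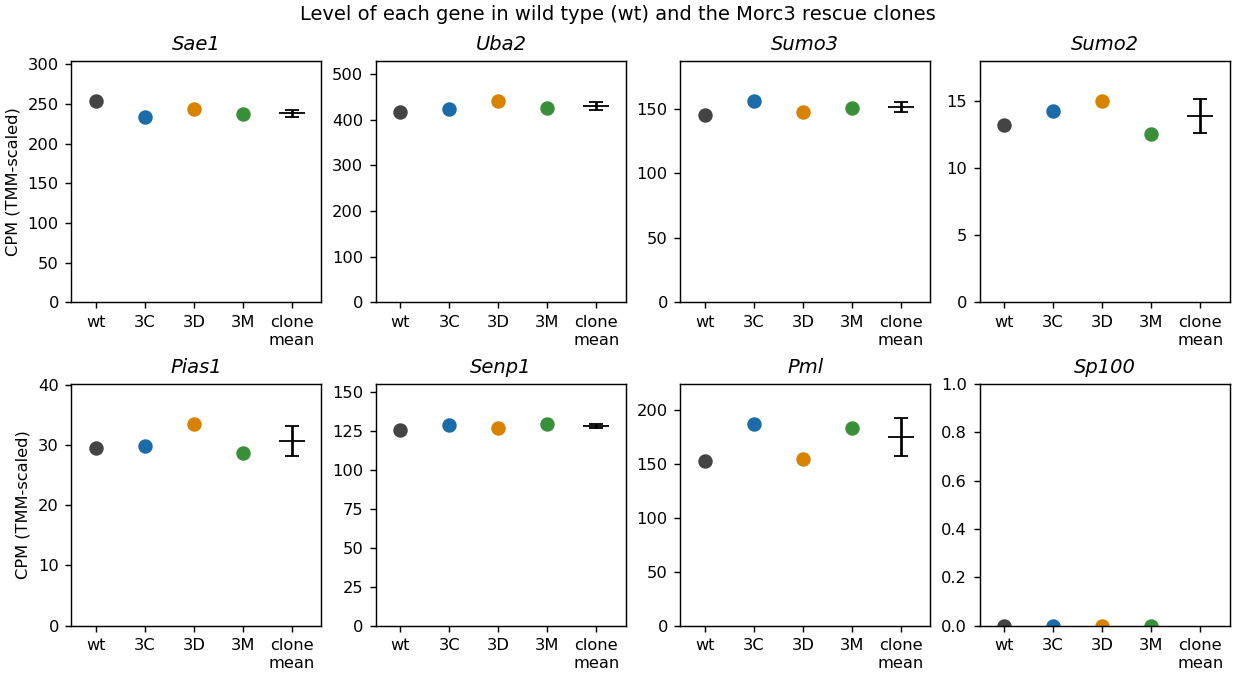
Level of each of the 8 genes in CPM (TMM-scaled, y axis from 0, a separate scale for each gene) in wild type (wt) and rescue clones 3C, 3D and 3M, with the mean and SD of the 3 clones at the right of each panel. Sae1 is the tested gene with all clones below wild type, Pml has clone 3D level with wild type (155 against 153 CPM) and 3C and 3M above it, and Sp100 is at 0 in every library.

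Pias1, the E3 ligase of the set and a ligase first known for holding back STAT signalling (chr9:62878366-62980879), was the lowest of the tested genes per length, at 4.32 CPM per kilobase in wild type and 4.49 ± 0.362 in the clones. It stood at 29.5 CPM in wild type and at 29.9, 33.5 and 28.7 CPM in 3C, 3D and 3M. Wild type lay inside the range of the clones, and 3D was the highest library. Its fitted change was 0.06 on the log2 scale (standard error 0.13, interval -0.26 to 0.37, adjusted p = 0.91 in edgeR's quasi-likelihood test), and it was -0.01 without 3D. Of the 11 E3 ligases listed, all 11 were tested, none was called changed and none had an unadjusted p under 0.05. In 6 of the 11 all clones were below wild type and in none were all above, where 28.4% of all tested genes had all clones below and 28.7% all above. Their median log2 fold change was -0.05, and the lowest was -0.15 for Mul1, a ligase of the mitochondrial membrane.

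Senp1, a protease that both matures SUMO precursors and strips SUMO from targets (chr15:98038744-98093569), was the steadiest of the set. It stood at 125 CPM in wild type and at 128, 127 and 129 CPM in 3C, 3D and 3M. All clones were above wild type, each by less than its counting interval. The clones had a coefficient of variation of 0.871%, and 1.40% of all tested genes had a smaller one. Their ratios to wild type lay closer together than the counting interval of any of them, so this spread does not measure how steady the gene is. With a log2 fold change of 0.03 and a standard error of 0.068 it did not pass edgeR's quasi-likelihood test (adjusted p = 0.91), and the 95% interval of the fold ran from 0.908 to 1.15. Among the 9 SUMO proteases listed, none was called changed. Senp6, which trims chains of SUMO2 and SUMO3, had 100 CPM in wild type and 115, 117 and 111 CPM in 3C, 3D and 3M, all above wild type, and a log2 fold change of 0.19 (standard error 0.077, unadjusted p = 0.049, adjusted p = 0.48 in edgeR's test). Without any 1 of the clones its unadjusted p was between 0.068 and 0.095. The other proteases ran from -0.07 for Senp3, an enzyme of the nucleolus, to 0.47 for Senp7, which had only 48 to 78 counts per library. The SUMO-targeted ubiquitin ligases, which put ubiquitin on SUMO-modified proteins such as Pml, had log2 fold changes of 0.01 (Rnf4) and -0.05 (Rnf111).

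Pml, the scaffold of the bodies (chr9:58217179-58249796), varied most between the clones among the 7 tested members, with a coefficient of variation of 10.1%. Of all tested genes, 54.3% had a smaller one. It stood at 153 CPM in wild type and at 187, 155 and 184 CPM in 3C, 3D and 3M. All 3 clones were above wild type, but 3D was level with it while 3C and 3M stood together well above. Against wild type the ratio was 1.22 in 3C (95% counting interval 1.16 to 1.29), 1.01 in 3D (0.958 to 1.07) and 1.20 in 3M (1.14 to 1.27). The mean of the clones was 175 ± 17.6 CPM, and the log2 fold change of 0.20 (standard error 0.12, interval -0.11 to 0.50) did not pass the test (adjusted p = 0.62 in edgeR's quasi-likelihood test). Without 3D it was 0.28 (standard error 0.078, adjusted p = 0.051), which did not pass either. The log2 fold change was 0.15 without 3C and 0.16 without 3M. In bulk RNA a change in the number of cells that express a gene and a change in its RNA per cell cannot be told apart. The genes of chromosome 9 as a whole had medians of 0.006, -0.003 and 0.005 in 3C, 3D and 3M on the log2 scale.

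Other genes had a pattern across the clones like that of Pml. By the distance between the 3 log2 differences of the clones from wild type, the nearest genes of 8544 with a mean of at least 10 CPM included E130012A19Rik and the actin-binding gene Lasp1 (distances 0.027 and 0.032), and 64 of the 8544 lay within 0.1. For Sumo2 they were Apmap, the glycosylation gene Alg6 and the transcription factor gene Trps1 (0.033, 0.044 and 0.045), and 98 lay within 0.1. With 3 clones and 1 wild-type library in common, such likeness describes these libraries only.

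**Figure D2:**
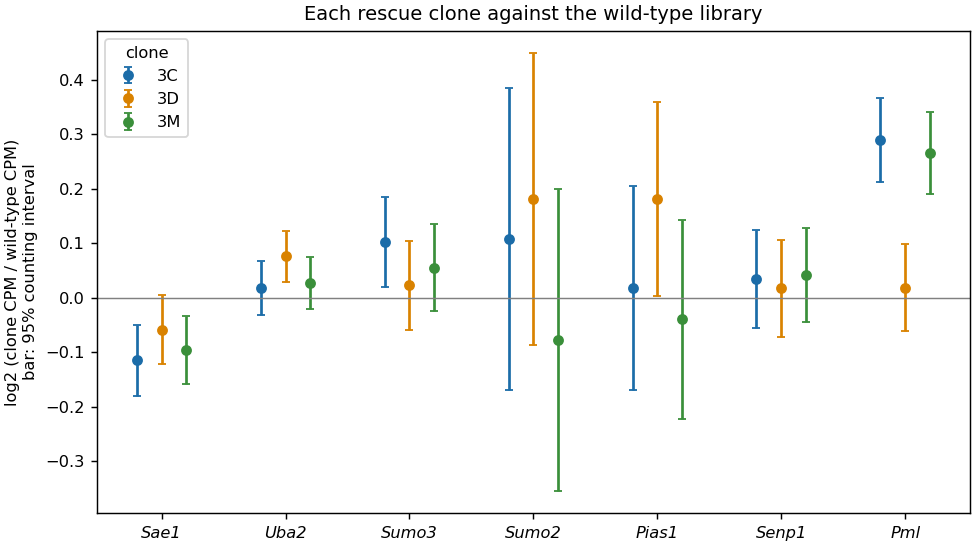
Ratio of each clone's CPM to the wild-type CPM on the log2 scale for the 7 tested genes, with bars for the 95% counting interval of each ratio. The points of 3C and 3M for Pml stand apart from that of 3D (ratios of 1.22, 1.20 and 1.01), while the 3 clones of Senp1 and of Sae1 stand close together.

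Sp100, the interferon-inducible partner of Pml in the bodies (chr1:85649948-85709998), had 0 counts in all 4 libraries and on both strands. A count of 0 allows up to 3 counts, which is 0.157 CPM in wild type and 0.223, 0.206 and 0.194 CPM in 3C, 3D and 3M, so its RNA was not detectable at this depth. Of its windows of 50 bases, 5.21% are shared with genes elsewhere. Its relatives in the neighbouring stretch of chromosome 1 had low counts too, 1 for Sp110 in each library and 2 to 5 for Sp140, but 37.9% and 49.1% of their windows are shared with genes elsewhere. None of these was tested.

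Interferon-induced genes were listed because Pml and Sp100 belong to that response in other cells. Of 21 such genes 14 were tested and none was called changed, 5 of the 14 (35.7%) had a log2 fold change within 0.2 of 0, against 60.0% of all genes tested, and Irf7, Isg15, Usp18 and Ifit3 had 0 counts in all libraries. The extremes were Tap1, a peptide transporter of antigen presentation, at a log2 fold change of 0.61 (12 wild-type counts against 24, 10 and 8), and Ifit2 at -0.86 (59 counts against 16, 25 and 33, adjusted p = 0.49 in edgeR's test). The 2 genes with an unadjusted p under 0.05, Irf9 and Dtx3l, named for that value, were higher in the clones (log2 fold changes of 0.43 and 0.30), and Irf9 lies on chromosome 14. The median over the 14 was 0.05, and the comparison with all genes tested was not matched for level.

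None of the 7 tested genes was called changed in rescue clones at an adjusted p of 0.01 in edgeR's quasi-likelihood test (adjusted p between 0.616 and 0.909), and none had an unadjusted p under 0.05. Over all 13267 genes tested, 0.00754% were called at that threshold, which is 1 gene, and 10.3% had an unadjusted p under 0.05. DESeq2 and limma-voom called none of the 7 either. In 4 of the 7 (Sumo3, Uba2, Senp1 and Pml) every clone was above wild type and in 1 (Sae1) every clone was below, where 28.7% and 28.4% of all tested genes were so placed, or 57.1% with all clones on one side. Their median log2 fold change was 0.06, next to 0.005 over all tested genes. The 95% intervals of the folds lay between 0.796, the lower end for Sumo2, and 1.41, the upper end for Pml, so a change beyond these bounds lay outside every interval. The median coefficient of variation between clones was 2.76% for the 7 genes and 9.03% for all genes tested, which differ in level.

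The wider list of 45 SUMO and PML body genes, the 8 included and Morc3 left out, gave the same count. Of its 41 tested genes none was called, 20 had a positive and 21 a negative log2 fold change, and the median was -0.005. The log2 fold change of 38 of the 41 (92.7%) lay within 0.2 of 0, against 60.0% of all genes tested. This comparison was not matched for level. None of the listed genes lies on chromosomes 13 and 14, which hold 885 of all genes tested. All clones were above wild type for 11 genes and below it for 14. An unadjusted p under 0.05 was found for 2 genes, Senp6 and Atrx, both higher in the clones, where 5.92% of all tested genes were higher at that p.

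Atrx, the chromatin remodeller that works with Daxx in depositing histone H3.3 and gathers in PML bodies, had the lowest p of the list. It stood at 347 CPM in wild type and at 454, 446 and 456 CPM in 3C, 3D and 3M. The clones lay close together, 452 ± 5.56 CPM (SD, n = 3), and all were above wild type. Atrx had a log2 fold change of 0.38 (standard error 0.059, 95% interval 0.24 to 0.53), the unadjusted p was 0.00081 and the adjusted p was 0.19 in edgeR's quasi-likelihood test, so it was not called. DESeq2 gave an adjusted p of 0.040, above the threshold of 0.01. Without clone 3D the adjusted p of Atrx was 0.0032 in edgeR's test and the gene was called, in a fit that called 420 of 13243 genes. The adjusted p was 0.18 without 3C and 0.72 without 3M. In all 3 cases the log2 fold change was from 0.38 to 0.39. Genes of the X chromosome as a whole, where Atrx lies, had medians of -0.02, 0.01 and 0.03 in 3C, 3D and 3M. Daxx itself, the H3.3 chaperone, had 80.8 CPM in wild type and 77.8, 80.3 and 73.0 CPM in the clones, all below wild type, with a log2 fold change of -0.07 (adjusted p = 0.82). The lowest of the PML body genes was Hira, a chaperone of H3.3 in another complex, at 132 CPM in wild type and 116, 120 and 120 CPM in the clones (log2 fold change -0.15, standard error 0.070, adjusted p = 0.53).

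**Figure D3:**
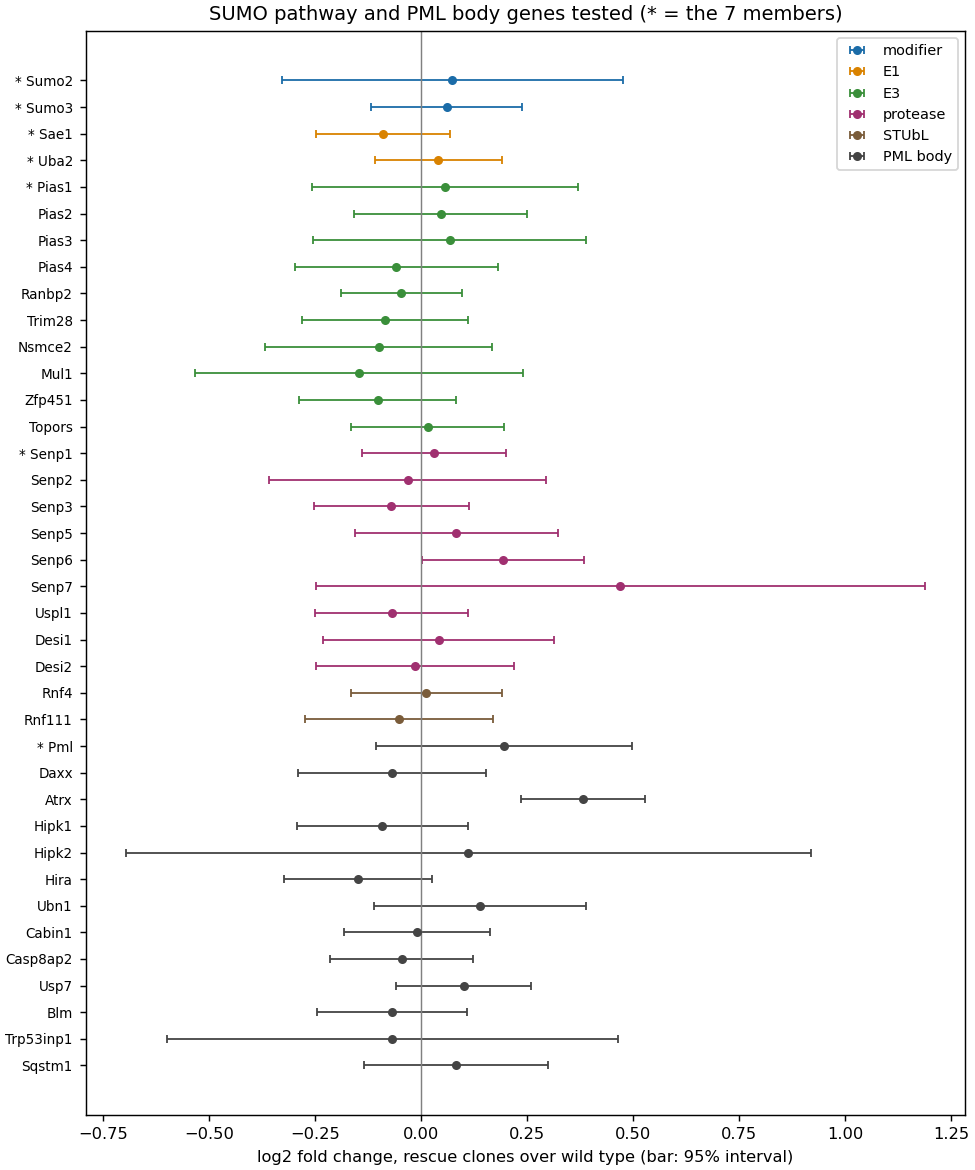
Log2 fold change of rescue clones over wild type with its 95% interval for 38 of the 41 tested SUMO and PML body genes, coloured by role, with the 7 tested members marked by an asterisk. Most points lie near 0, and Atrx at 0.38 and Senp6 at 0.19 are the genes whose intervals leave out 0.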

How the data were processed

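The authors aligned the read pairs to mm10 with STAR and deposited, per gene, unnormalised counts of read pairs that mapped uniquely, in an unstranded and 2 stranded columns. The sources used here do not give the annotation. The reverse-strand column was taken, since the library kit is directional, and rows that name no gene (unmapped 14.5 to 23.0%, multimapping 7.85 to 8.21% of read pairs) were left out. The test was that of edgeR 4.0.16 in R 4.3.3 (TMM, filterByExpr, quasi-likelihood test, Benjamini-Hochberg adjustment over 13267 genes, adjusted p of 0.01). DESeq2 1.42.0, limma 3.58.1 (voom), other scalings, filters and columns, and leaving out each clone were alternatives. The steps were tested on simulated data. Chi-square per gene was 7.17 to 10.8 between clones, so no library was a copy. Whether the clones' libraries came from separate cultures on separate days is not stated.

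Exon lengths and sequences came from GENCODE M21 on GRCm38, positions from RefSeq GRCm38.p6 (22542 symbols matched). Genes named were the 8 members, Morc3, Daxx, Atrx, listed SUMO or PML body genes with an unadjusted p under 0.05, the extremes of each list, and the 3 genes nearest to Pml and to Sumo2. A few genes that this rule picks are not reported here, though list counts include them. Members and lists were chosen with earlier results of these data known.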

Additional observations from a re-analysis of the deposited data

Results flagged for a closer look

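Counts on the strand opposite to Morc3, which no comparison used, were well above the wild-type level in every rescue clone. The forward-strand column held 7 counts on Morc3 in wild type and 1963, 2001 and 2266 in 3C, 3D and 3M. These were 0.228% of the counts of both strands in wild type, 18.2% in 3C, 21.7% in 3D and 19.4% in 3M. Over all genes, forward-strand counts came to 1.26% to 1.31% of reverse-strand counts. The 8 chosen SUMO and PML genes had at most 7 counts on the opposite strand in any library. No cause was tested.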

How the results depend on the processing

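Of 124 values under 12 alternative settings, 114 were the same as in the main fit. For a fold change this meant the same direction and the same outcome of the test. For a number of genes called it meant the same number. None of the 7 tested SUMO and PML genes was called in any setting. Without clone 3D 1 of them, Pml, had an unadjusted p under 0.05 (0.0035 in edgeR's quasi-likelihood test). In that fit 2466 of all 13243 genes tested had such a p. The number of genes called in the whole table was 1, and it was 0 with at least 10 counts in every library, 65 with DESeq2, 0 with limma-voom and 0 with edgeR's legacy option. Leaving out each clone in turn gave 0 to 420 genes, the highest without 3D and the lowest without 3M, and 0 to 1 of the wider list, the 1 being Atrx without 3D. The log2 fold change of Pias1 ran from -0.011 without 3D to 0.10 without 3M. Morc3 was called with DESeq2 (adjusted p = 4.0e-23) and without 3D (8.3e-09), and its adjusted p was 0.52 without 3M. The cause was not tested. No paired analysis was possible because the labels give no replicate numbers and wild type has 1 library. Depth limits Sumo2, Pias1 and Senp7 most, and the count of Sumo2 also leaves out reads shared with pseudogenes.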
